A study of Mus musculus with 8 samples.

Results

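Cholesterol and fatty acid synthesis were followed through 34 genes, taken as the rows of the raw count table whose gene name was on a list of enzymes and regulators. The table held 48709 genes, and all 34 members were found once and passed the filter on low counts. The tissue was whole gastrocnemius, a calf muscle made mostly of fast fibres, taken from 16-week-old C57BL/6 mice. The knockout group (GR(i)skm-/-, called GRKO here, 4 libraries) came from a cross of mice carrying a floxed glucocorticoid receptor gene (GR, Nr3c1) with HSA-Cre-ERT2 mice, and the control group (4 libraries) was GR floxed. HSA-Cre-ERT2 is a ligand-inducible Cre recombinase driven by the human skeletal actin promoter, so the deletion is aimed at myofibres and not at the vessel, nerve, fat and immune cells of the muscle. No source used here gives the inducing treatment or says whether control mice received it.

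Cells make cholesterol from acetyl-CoA through the mevalonate pathway to squalene, which is closed to lanosterol and trimmed to cholesterol. Fatty acids are built from the same precursor by acetyl-CoA carboxylase and fatty acid synthase, then elongated and desaturated. Both branches are driven by the SREBP transcription factors, which the escort protein SCAP carries from the endoplasmic reticulum to the Golgi when sterols are scarce and which the INSIG proteins hold back when sterols are plentiful. Skeletal muscle oxidises fat more than it makes it, while adipocytes and myelinating Schwann cells, both present in whole muscle, are known for high synthesis of fatty acids and of cholesterol.

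Libraries E to H are labelled GRKO and A to D control, in the order of the table's columns, whose numbers match no label. Totals ran from 37944368 to 52200305 counts in the libraries labelled GRKO and from 36680510 to 44987629 in control. Nr3c1 was at 87.1, 38.6, 96.7 and 42.8 CPM (read counts scaled to library size with TMM factors) across E, F, G and H, against 83.2, 89.6, 84.7 and 90.0 CPM across the controls A, B, C and D. Libraries E and G therefore stood at the control level of the gene their label says was deleted, and the difference between the groups did not pass (log2 fold change -0.39 ± 0.31 (SE), edgeR adjusted p = 0.452; two-sided exact permutation p = 0.371, where 0.0286 is the smallest possible). Without E and G the log2 fold change of Nr3c1 was -1.09. Those libraries were picked by their Nr3c1 level, so this value is a description and no p-value is given for it. Directions below are those of the libraries labelled GRKO, and calls lost without E and G are given both ways. That smaller fit kept only F and H of the libraries labelled GRKO. It called 1.49% of all genes tested, against 8.45% with every library, so a call can be lost in it with little change in the fold. Genes of myofibres (Acta1, Ckm, Myh4 and others) were abundant in every library, with a summed level of 190333 to 217594 CPM over 10 markers in libraries labelled GRKO and 206406 to 256737 CPM in control. Of these 10, 2 fell (Acta1, log2 fold change -0.33, and Mylpf, -0.52), a share of 20% beside 8.45% of all genes tested. Of the 10 log2 fold changes, 9 were negative.

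Of the 34 members, 3 rose in the libraries labelled GRKO, none fell, and 31 did not pass edgeR's quasi-likelihood test at a Benjamini-Hochberg adjusted p of 0.05. The 3 were Stard4, a carrier of cholesterol between membranes, Me1, the cytosolic malic enzyme that supplies NADPH for fatty acid synthesis, and Insig2, which retains the SREBP complex in the endoplasmic reticulum. They are 8.82% of the members, beside 8.45% of the 14712 genes tested that were called in either direction, 4.04% as higher and 4.41% as lower, so the share of members called was near the background. Unadjusted p-values under 0.05 were found for 13 members, 7 with a positive and 6 with a negative log2 fold change. The median log2 fold change was -0.03 over the members and -0.01 over all genes tested. The 4 and 4 libraries did not overlap for 6 members (17.6%), against 16.7% of all genes tested.

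**Figure D1:**
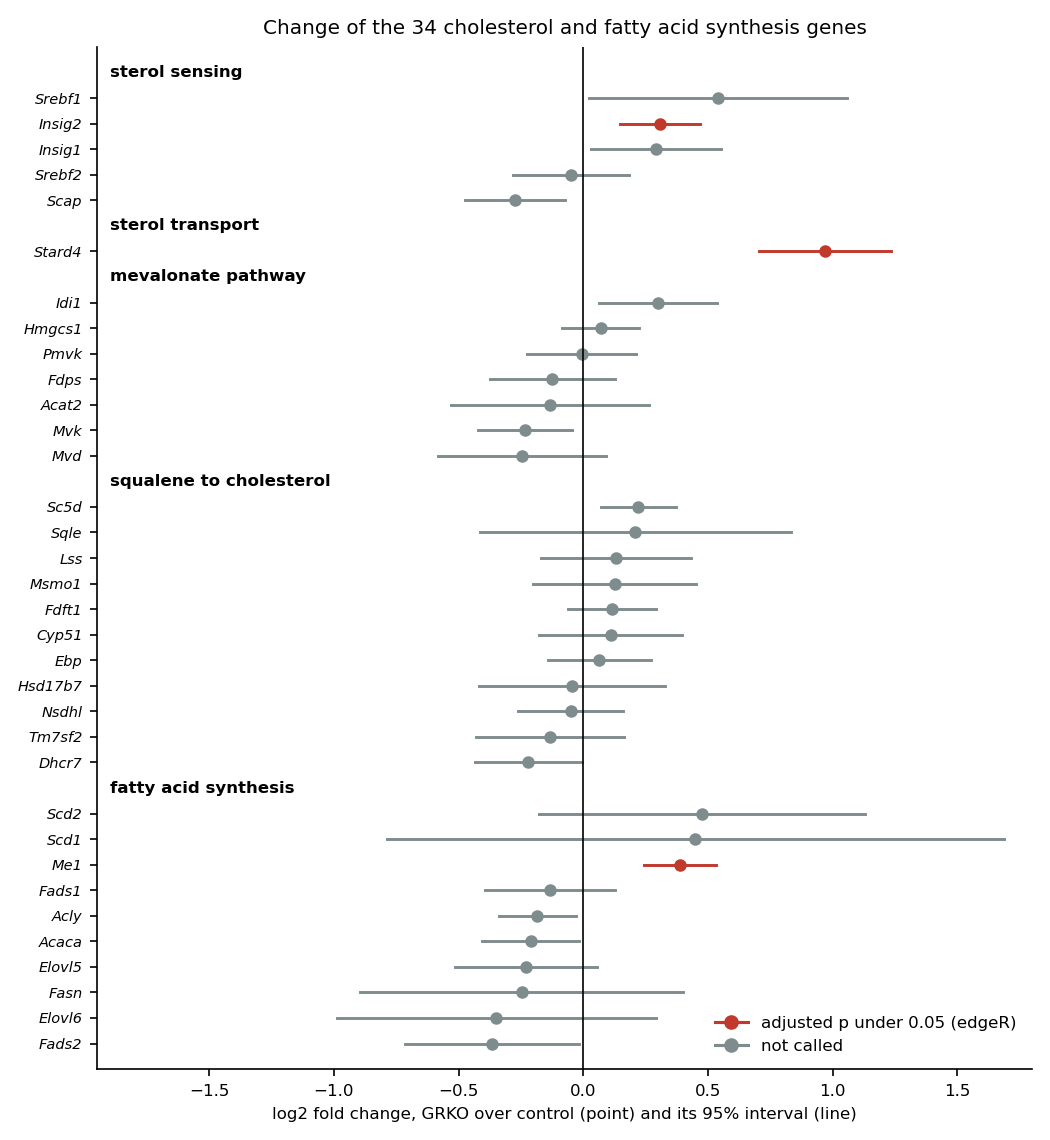
Log2 fold change (libraries labelled GRKO over control) of each of the 34 members with its 95% interval, grouped by role; red marks the members with an edgeR adjusted p under 0.05. Stard4 stands farthest to the right at 0.97, and Me1 and Insig2 are the other called members. The enzymes of the mevalonate and squalene steps lie between -0.25 and 0.30.

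Promoters of 3 members are shown, the called members with a promoter entry and the one member whose promoter held the sterol regulatory element core searched for. Of the 34 members, 27 had an entry in the RefSeq promoter table (GRCm38.p6, 250 bases before to 50 after the start), and the first listed start of each gene was used (of 3 for Insig2, 2 for Me1 and 1 for Hmgcs1). Insig2 and Me1 were called members, and Hmgcs1, the cytosolic HMG-CoA synthase, was not called. Capitals mark every match, on either strand, to TCACNCCAC (sterol regulatory element core), CACGTG (E-box), CCAAT (bound by NF-Y), GGGCGG (bound by Sp1) and ACANNNTGT (core of the glucocorticoid response element). The windows are chr1:121332540-121332839 (minus strand) for Insig2, chr9:86695865-86696164 (minus strand) for Me1 and chr13:119690101-119690400 (plus strand) for Hmgcs1.
Insig2: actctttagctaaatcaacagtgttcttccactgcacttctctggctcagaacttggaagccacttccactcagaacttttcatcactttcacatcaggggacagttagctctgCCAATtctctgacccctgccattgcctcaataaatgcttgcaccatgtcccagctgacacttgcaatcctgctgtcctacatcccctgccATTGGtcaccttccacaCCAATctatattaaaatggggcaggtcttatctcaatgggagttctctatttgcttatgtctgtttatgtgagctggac
Me1: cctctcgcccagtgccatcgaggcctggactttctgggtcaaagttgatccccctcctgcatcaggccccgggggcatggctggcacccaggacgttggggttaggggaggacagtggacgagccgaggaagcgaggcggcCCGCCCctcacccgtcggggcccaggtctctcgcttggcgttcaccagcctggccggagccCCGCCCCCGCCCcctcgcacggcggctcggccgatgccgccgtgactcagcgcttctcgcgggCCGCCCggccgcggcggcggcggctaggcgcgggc
Hmgcs1: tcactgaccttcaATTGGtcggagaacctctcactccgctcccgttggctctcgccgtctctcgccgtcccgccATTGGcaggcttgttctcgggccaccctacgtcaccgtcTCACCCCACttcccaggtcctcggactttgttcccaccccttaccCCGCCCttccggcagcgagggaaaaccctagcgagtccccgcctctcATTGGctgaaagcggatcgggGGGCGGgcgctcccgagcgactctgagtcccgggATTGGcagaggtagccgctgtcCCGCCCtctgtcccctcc

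The Insig2 window held CCAAT 3 times, the Me1 window held GGGCGG 4 times, a pair of them end to end, and the Hmgcs1 window held TCACNCCAC once, CCAAT 4 times and GGGCGG 3 times. CCAAT was found in 20 of the 27 member promoters (74.1%) and in 37.9% of the 27025 first-listed promoters of the table. GGGCGG was likewise found in 20 of 27 (74.1%), against 35.9% of all. CACGTG was in 5 member promoters (18.5%, against 7.24%). TCACNCCAC was in 1 (3.7%, against 1.22%), that of Hmgcs1. ACANNNTGT was in 1 (3.7%, against 6.9%), that of Acat2. These are matches of letters, given as a description with no test.

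Among the sterol sensors and regulators, 1 of 5 members rose and none fell (20% called, beside 8.45% of all genes tested). Insig2 (chromosome 1, 121304353 to 121332589, minus strand) was at 69.6, 74.6, 76.0 and 75.5 CPM across E, F, G and H, against 53.6, 61.2, 57.8 and 66.3 CPM across the controls A to D. The groups did not overlap, with the lowest library labelled GRKO (E) close above the highest control (D). The mean was 73.9 ± 2.95 CPM in GRKO and 59.7 ± 5.35 CPM in control libraries (SD, n = 4 each), and the log2 fold change was 0.31 ± 0.07 (SE, 1.24-fold, edgeR adjusted p = 0.0284). Its call was lost with any 1 of A, C, F, G or H left out (highest adjusted p = 0.0939, log2 fold change 0.26 to 0.36 over all 8 fits), with the GC trend removed (0.25, adjusted p = 0.0557) and without E and G (0.33, adjusted p = 0.117). Insig1, the paralog whose transcript is itself an SREBP target, was at 13.9, 13.3, 15.9 and 11.6 CPM in E, F, G and H, against 13.1, 9.77, 11.6 and 10.2 CPM in A to D. Its groups overlapped (log2 fold change 0.29 ± 0.12 (SE), edgeR adjusted p = 0.141), and the value was 0.15 without E and G.

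Srebf1, which encodes SREBP-1, the main driver of fatty acid synthesis genes, had the largest fold of the sensors without passing the test. It was at 88.2, 67.9, 88.0 and 55.2 CPM across E, F, G and H, against 65.6, 33.2, 53.8 and 53.0 CPM across the controls A to D. E and G were the highest of the 8 libraries, B was the lowest, and H lay within the control range. The log2 fold change was 0.54 ± 0.23 (SE; 95% interval 0.02 to 1.06, edgeR adjusted p = 0.168), and it passed the DESeq2 Wald test (adjusted p = 0.0371). Without E and G the log2 fold change was 0.26 (edgeR adjusted p = 0.601). Counts per gene do not separate its 1a and 1c transcripts. Srebf2, which encodes SREBP-2, the main driver of cholesterol synthesis genes, averaged 17.2 ± 1.4 CPM in GRKO and 17.8 ± 2.70 CPM in control libraries (log2 fold change -0.05, edgeR adjusted p = 0.8). Scap, the escort protein, was at 21.9, 18.2, 20.9 and 17.9 CPM in E, F, G and H, against 26.8, 21.9, 22.4 and 24.3 CPM in A to D. E lay level with the lowest control, B, so the groups just overlapped (log2 fold change -0.27 ± 0.09 (SE), edgeR adjusted p = 0.0863). The value was -0.12 with the GC trend removed and -0.40 without E and G.

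**Figure D2:**
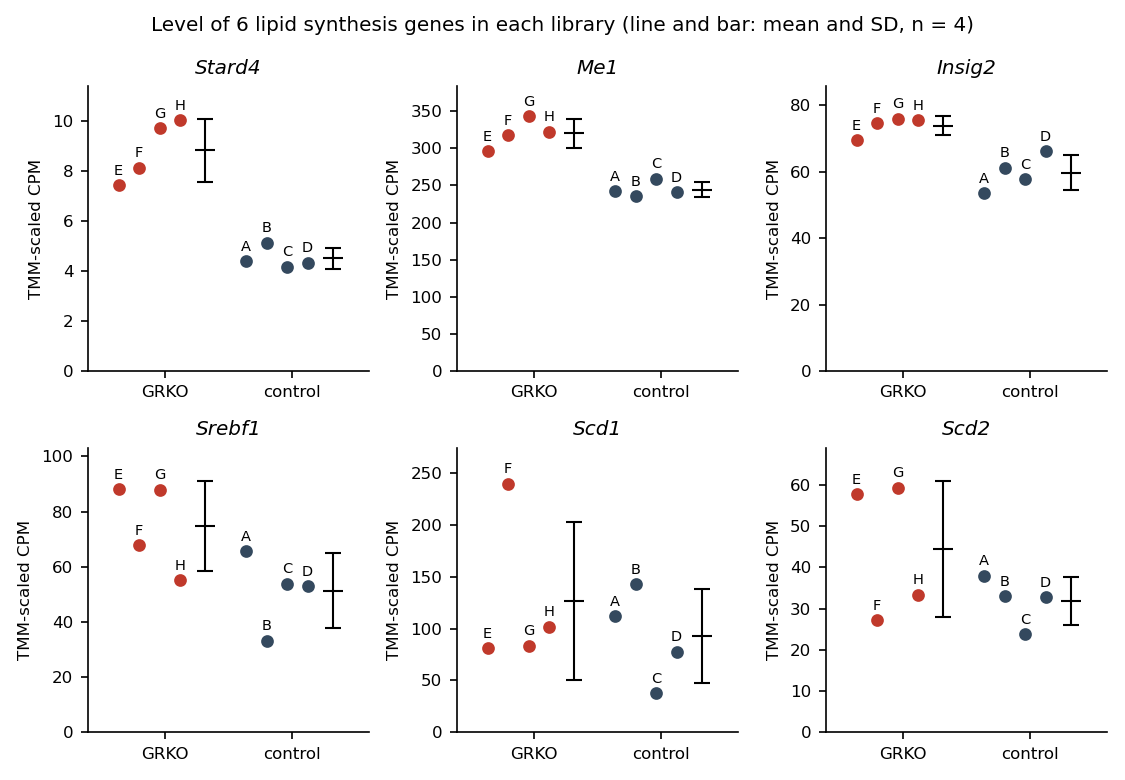
TMM-scaled CPM of Stard4, Me1, Insig2, Srebf1, Scd1 and Scd2 in each library (points, lettered), with the mean and SD of each group (n = 4). The groups do not overlap for Stard4, Me1 and Insig2, whereas for Srebf1 and Scd2 libraries E and G stand above the other libraries and for Scd1 library F stands alone at 239 CPM.

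Stard4 (chromosome 18, 33199355 to 33213862, minus strand), a START-domain protein that moves cholesterol between membranes and is itself a known SREBP-2 target, showed the largest change of the members. It was at 7.44, 8.14, 9.72 and 10.0 CPM across E, F, G and H, against 4.41, 5.14, 4.18 and 4.33 CPM across the controls A to D. Every library labelled GRKO was above every control library. Of the libraries with control-level Nr3c1, E was the lowest of those labelled GRKO and G lay between F and H. The mean was 8.83 ± 1.24 CPM in GRKO and 4.51 ± 0.426 CPM in control libraries (SD, n = 4 each), and the log2 fold change was 0.97 ± 0.12 (SE, 1.96-fold, edgeR adjusted p = 0.00226). It passed with each library left out in turn (0.90 to 1.04, highest adjusted p = 0.0108), with the GC trend removed (0.86) and without E and G (1.01, adjusted p = 0.0145).

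Enzymes of the mevalonate pathway, from acetyl-CoA to farnesyl diphosphate, gave no call among 7 members, beside 8.45% of all genes tested. At that share few or no calls would be looked for in so short a list. Hmgcs1, which forms HMG-CoA, was at 39.8, 41.2, 39.7 and 46.1 CPM across E, F, G and H, against 38.6, 43.2, 38.5 and 38.7 CPM in A to D. The groups overlapped (log2 fold change 0.07, 95% interval -0.09 to 0.23, edgeR adjusted p = 0.557). Idi1, the isopentenyl diphosphate isomerase, was at 10.1, 9.55, 11.8 and 12.3 CPM in E to H, against 8.87, 10.2, 8.04 and 8.41 CPM in A to D. Only B among the controls reached into the range of the libraries labelled GRKO (log2 fold change 0.30 ± 0.11 (SE), edgeR adjusted p = 0.106), and without B the adjusted p was 0.0461. With the GC trend removed its log2 fold change was 0.13 (adjusted p = 0.458). Mvk, the mevalonate kinase, averaged 7.10 ± 0.438 CPM in GRKO and 8.35 ± 0.443 CPM in control libraries (log2 fold change -0.23, edgeR adjusted p = 0.109). Its groups did not overlap, but E (7.67 CPM) lay just under D (7.70 CPM). Removal of the GC trend left Mvk at -0.10 (adjusted p = 0.493). The other 4, Acat2 (acetyl-CoA acetyltransferase), Pmvk (phosphomevalonate kinase), Mvd (mevalonate diphosphate decarboxylase) and Fdps (farnesyl diphosphate synthase), overlapped between groups with log2 fold changes of -0.14, -0.01, -0.25 and -0.12. Without E and G that of Mvd was -0.50.

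None of the 11 members from squalene to cholesterol was called either, beside 8.45% of all genes tested. Few or no calls would be looked for in this short list at that share. Fdft1, the squalene synthase that commits farnesyl diphosphate to sterols, was at 61.8, 61.7, 64.0 and 58.8 CPM across E, F, G and H, against 57.6, 50.6, 65.5 and 53.4 CPM across the controls A to D. All 4 libraries labelled GRKO lay within the control range (log2 fold change 0.12 ± 0.08 (SE), edgeR adjusted p = 0.376). Fdft1 shares 774 exon bases with Ctsb on the opposite strand (321 CPM in GRKO and 306 CPM in control libraries), and no source used here says whether counting used strand. Sc5d, the sterol C5 desaturase of the late steps, was at 18.7, 18.01, 17.9 and 19.6 CPM in E to H, against 15.3, 17.2, 15.8 and 15.4 CPM in A to D. Its groups did not overlap, but the log2 fold change, 0.22 ± 0.07 (SE), missed the threshold (edgeR adjusted p = 0.0714). Sc5d did pass with DESeq2 (adjusted p = 0.0407), with limma-voom (0.0471) and with library size as the only scaling (0.0399), while its log2 fold change was 0.08 with the GC trend removed. Dhcr7, the final reductase of one branch, averaged 6.62 ± 0.246 CPM in GRKO and 7.72 ± 0.827 CPM in control libraries (log2 fold change -0.22, edgeR adjusted p = 0.172).

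The remaining 8 sterol enzymes had log2 fold changes from -0.13 (Tm7sf2, a sterol reductase) to 0.21 (Sqle, squalene epoxidase). Sqle, a rate-limiting step of the pathway, had few reads, at most 108 counts in a library, and ranged from 1.5 to 2.01 CPM in GRKO and from 0.748 to 2.05 CPM in control libraries. Lss, the lanosterol synthase, averaged 5.30 CPM in GRKO and 4.85 CPM in control libraries, and Cyp51, the lanosterol demethylase, 5.62 CPM in GRKO and 5.21 CPM in control libraries. Msmo1, Nsdhl and Hsd17b7, which together remove the C4 methyl groups, had log2 fold changes of 0.13, -0.05 and -0.04. That of Ebp, the sterol isomerase, was 0.06. Without E and G, Tm7sf2 was at -0.28, Msmo1 at 0.27 and Hsd17b7 at -0.22 on the log2 scale. Over the 18 enzymes of the mevalonate and squalene steps, 9 log2 fold changes were positive and 9 negative, and the 95% intervals reached no lower than -0.58 (Mvd) and no higher than 0.83 (Sqle). Summed over the 18 genes, the level was 213 ± 2.40 CPM in GRKO and 205 ± 6.53 CPM in control libraries (SD, n = 4 each), with ranges that overlapped. Fdps shares 1124 exon bases with the same-strand gene Gm43738 and Tm7sf2 shares 532 with Vps51, so their counts may be split between neighbours. Hmgcs1, Idi1 and Scap each overlap a gene on the opposite strand over 9.22% to 13.2% of their exon bases.

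**Figure D3:**
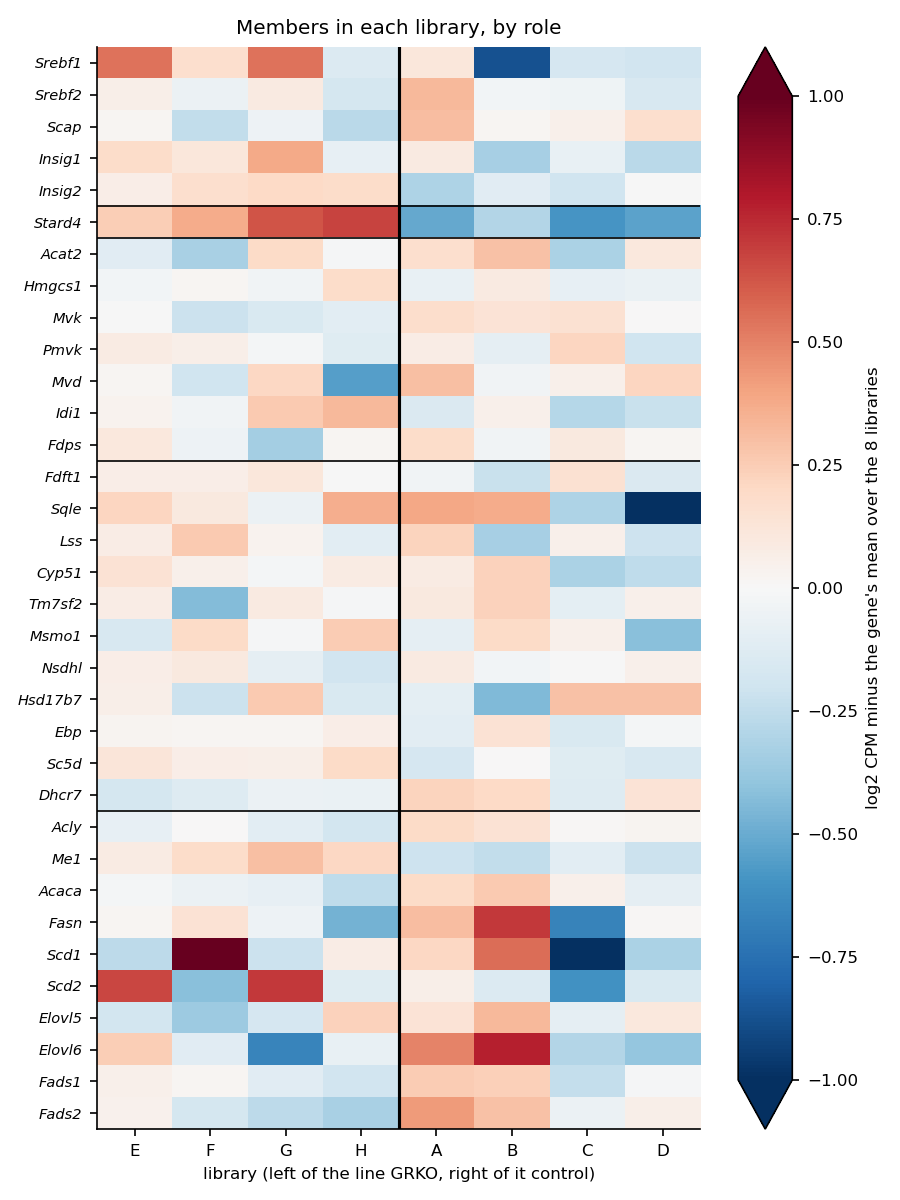
Log2 CPM of each member in each library minus the mean of that gene over the 8 libraries (colour, limited to 1 in either direction), with libraries labelled GRKO on the left and control on the right and horizontal lines between roles. Stard4, Me1 and Insig2 are redder throughout the left side, most sterol enzymes are pale, and Scd1, Scd2, Fasn, Sqle and Elovl6 vary between libraries of the same group.

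In fatty acid synthesis 1 of 10 members rose, none fell and 9 did not pass (10% called, beside 8.45% of all genes tested). Me1 (chromosome 9, 86581371 to 86695953, minus strand) was at 296, 318, 344 and 322 CPM across E, F, G and H, against 242, 236, 259 and 241 CPM across the controls A to D. Each library labelled GRKO exceeded each control library. The mean was 320 ± 19.4 CPM in GRKO and 245 ± 10.2 CPM in control libraries (SD, n = 4 each), and the log2 fold change was 0.39 ± 0.07 (SE, 1.31-fold, edgeR adjusted p = 0.00895). The call held with each library left out in turn (0.35 to 0.42, highest adjusted p = 0.0386) and with the GC trend removed (0.31, adjusted p = 0.0252). Without E and G the log2 fold change was again 0.39, with an adjusted p of 0.0589. Per kilobase of annotated exon, Me1 was also the most abundant member in control muscle, at 63.6 ± 2.65 CPM per kb, ahead of Scd1 at 18.9 ± 9.24 and Insig2 at 17.2 ± 1.54 CPM per kb.

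The enzymes that make palmitate had negative log2 fold changes without a call. Acly, the ATP citrate lyase that makes cytosolic acetyl-CoA, was at 20.2, 21.5, 19.9 and 18.9 CPM across E, F, G and H, against 24.4, 23.7, 21.6 and 21.8 CPM in A to D. Its groups did not overlap, F lying close under C (log2 fold change -0.18 ± 0.07 (SE), edgeR adjusted p = 0.123). Acaca, the acetyl-CoA carboxylase of the cytosol, averaged 18.2 ± 1.26 CPM in GRKO and 21.02 ± 2.20 CPM in control libraries (log2 fold change -0.21, edgeR adjusted p = 0.153). Fasn, the fatty acid synthase, was at 34.2, 37.3, 32.7 and 24.4 CPM in E to H, against 42.0, 55.1, 21.3 and 34.2 CPM in A to D. All 4 libraries labelled GRKO lay inside the wide control range (log2 fold change -0.25, 95% interval -0.89 to 0.40, edgeR adjusted p = 0.61).

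Desaturases and elongases did not pass, and the stearoyl-CoA desaturases, which make oleate and palmitoleate, spread widely within groups. Scd1 was at 81.0, 239, 83.6 and 102 CPM across E, F, G and H, against 112, 143, 37.7 and 77.8 CPM in A to D. F was the highest and C the lowest of the 8 libraries, and E, G and H lay within the control range (log2 fold change 0.45 ± 0.52 (SE), edgeR adjusted p = 0.623). Without F its log2 fold change was -0.06, and without E and G it was 0.88 (edgeR adjusted p = 0.481). Scd2 was at 57.7, 27.2, 59.3 and 33.4 CPM in E to H, against 37.9, 33.0, 23.8 and 32.8 CPM in A to D. E and G stood above every other library while F and H lay within the control range (log2 fold change 0.48 ± 0.28 (SE), edgeR adjusted p = 0.316), and without E and G the value was -0.07. The desaturases Fads1 and Fads2, which make polyunsaturated fatty acids, had log2 fold changes of -0.13 and -0.37, and the elongases Elovl5 and Elovl6 of -0.23 and -0.35, with adjusted p-values from 0.167 (Fads2) to 0.5 (Fads1). Scd1 and Scd2 are close paralogs on chromosome 19, and no source used here says how reads common to both were counted. The 5 genes Insig1, Srebf1, Scd1, Scd2 and Fasn were given in full after their values were seen.

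Adipocyte genes, read here from whole muscle, also spread widely within groups. The summed level of 10 adipocyte markers was 337, 386, 278 and 345 CPM across E, F, G and H, against 285, 402, 218 and 244 CPM in A to D. Fabp4 gave the largest part of each sum (202 CPM in E and 179 CPM in C, log2 fold change 0.05). The sums therefore largely reflect that gene. Adipoq, which encodes adiponectin, was at 14.7, 27.6, 13.2 and 16.9 CPM in E to H, against 11.1, 16.4, 3.65 and 8.60 CPM in A to D. F was the highest library for 4 of the 10 markers, Adipoq among them, and B for 4 others, while C was the lowest for 8 of 10. B also had the highest sum. In C, Plin1 was at 2.13 CPM, Cidec at 2.26 CPM and Adrb3 at 0. None of the 10 markers was called by edgeR (0 with an unadjusted p under 0.05), and 9 of 10 log2 fold changes were positive. The part of fat cells in the levels of Scd1, Fasn and the other lipogenic members was not tested.

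**Figure D4:**
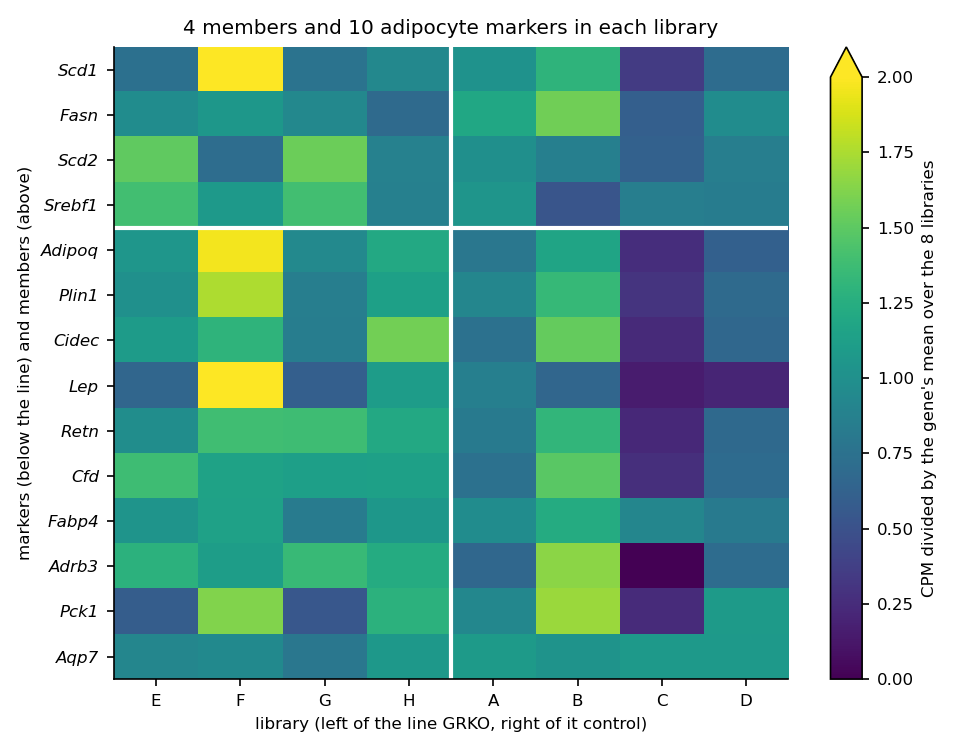
CPM divided by the mean of that gene over the 8 libraries (colour, limited to 2) for the members Scd1, Fasn, Scd2 and Srebf1 (above the line) and the 10 adipocyte markers (below it), with libraries labelled GRKO on the left and control on the right. Library C is lowest for Scd1, Fasn and 8 of the 10 markers, F and B are each highest for 4 markers, and Aqp7 is about even across libraries.

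Among other cell types, the summed marker levels of Schwann and endothelial cells did not overlap between groups, and those of macrophages did. Of 12 markers of myelinating Schwann cells, 10 could be tested and 9 fell, with a median log2 fold change of -1.45 over the 10 tested. Their summed level was 51.0 to 71.8 CPM in libraries labelled GRKO and 145 to 262 CPM in control, with no overlap, and Pmp2 was at 0 in E, G, C and D. Of 10 macrophage markers, 2 rose and none fell, with summed levels of 99.9 to 144 CPM in GRKO and 71.2 to 115 CPM in control libraries. All 10 macrophage log2 fold changes were positive (median 0.47), 5 of them with an unadjusted edgeR p under 0.05. Of 10 endothelial markers, 1 rose and 4 fell, with summed levels of 442 to 481 CPM in GRKO and 499 to 520 CPM in control libraries. The called shares of tested Schwann cell, macrophage and endothelial markers were 90%, 20% and 50%, beside 8.45% of all genes tested. In whole muscle, fewer cells of a type and less RNA per cell cannot be told apart, and the part of these cell types in the members' values was not tested.

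Around the members, a further 46 genes of sterol and fatty acid handling were followed, of which 45 could be tested. Of these, 1 rose and 3 fell, and 41 did not pass. The called share, 8.89%, was near the 8.45% of all genes tested. Their median log2 fold change was 0.01. Among 10 genes of sterol uptake, export and storage, Abca1, which exports cholesterol to apolipoproteins, rose to 28.2 ± 3.14 CPM in libraries labelled GRKO, against 20.2 ± 1.16 CPM in control (SD, n = 4 each). Its log2 fold change was 0.48 ± 0.09 (SE, edgeR adjusted p = 0.00982). The libraries stood at 26.8, 28.2, 32.6 and 25.3 CPM in E to H, against 18.7, 19.8, 20.7 and 21.4 CPM in A to D, with no overlap. Scarb1, the receptor that takes up cholesteryl ester from high-density lipoprotein, fell to 20.3 ± 0.807 CPM in libraries labelled GRKO, against 30.5 ± 0.714 CPM in control. That is a log2 fold change of -0.58 ± 0.06 (SE, edgeR adjusted p = 0.000617), with E, F, G and H at 21.3, 19.4, 19.98 and 20.6 CPM and A to D at 31.1, 29.5, 30.4 and 30.9 CPM.

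Among 23 tested genes outside the members that were grouped here as fatty acid synthesis and related steps, none rose and 2 fell. The called share, 8.7%, was near the 8.45% of all genes tested. The group is broad and includes Acacb, Acsl1, Acsl3, Gpam and Lpin1. Mlxipl, which encodes the carbohydrate-responsive factor ChREBP, fell to 74.1 ± 3.32 CPM in libraries labelled GRKO, against 93.6 ± 6.80 CPM in control (log2 fold change -0.34 ± 0.07 (SE), edgeR adjusted p = 0.0164). Hacd1, a dehydratase of very-long-chain fatty acid elongation that is abundant in muscle, fell to 35.2 ± 4.95 CPM, against 52.3 ± 7.17 CPM in control (-0.57 ± 0.12, edgeR adjusted p = 0.0165). The call of Mlxipl was lost with the GC trend removed (-0.20, adjusted p = 0.0927) and without C (0.0506) or G (0.0657), and that of Hacd1 without G (0.0582). Without E and G the calls of Abca1 (0.41, adjusted p = 0.0685), Mlxipl (-0.30, 0.127) and Hacd1 (-0.44, 0.129) were lost, while Scarb1 passed. Calls over all genes tested were also fewer in that smaller fit, at 1.49% against 8.45%.

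The number of members called moved with the fit. In brackets is the share of all genes tested that the same fit called. The number of members was 5 with DESeq2 (13.5%), 4 with limma-voom (12.7%) and 4 with library size as the only scaling (9.12%). It was 2 with the GC trend removed (4.64%) and 1, Stard4, without E and G (1.49%). No member was called lower in any of these fits. Stard4 was called in each of the 18 fits run, Me1 in all but that without E and G.

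**Figure D5:**
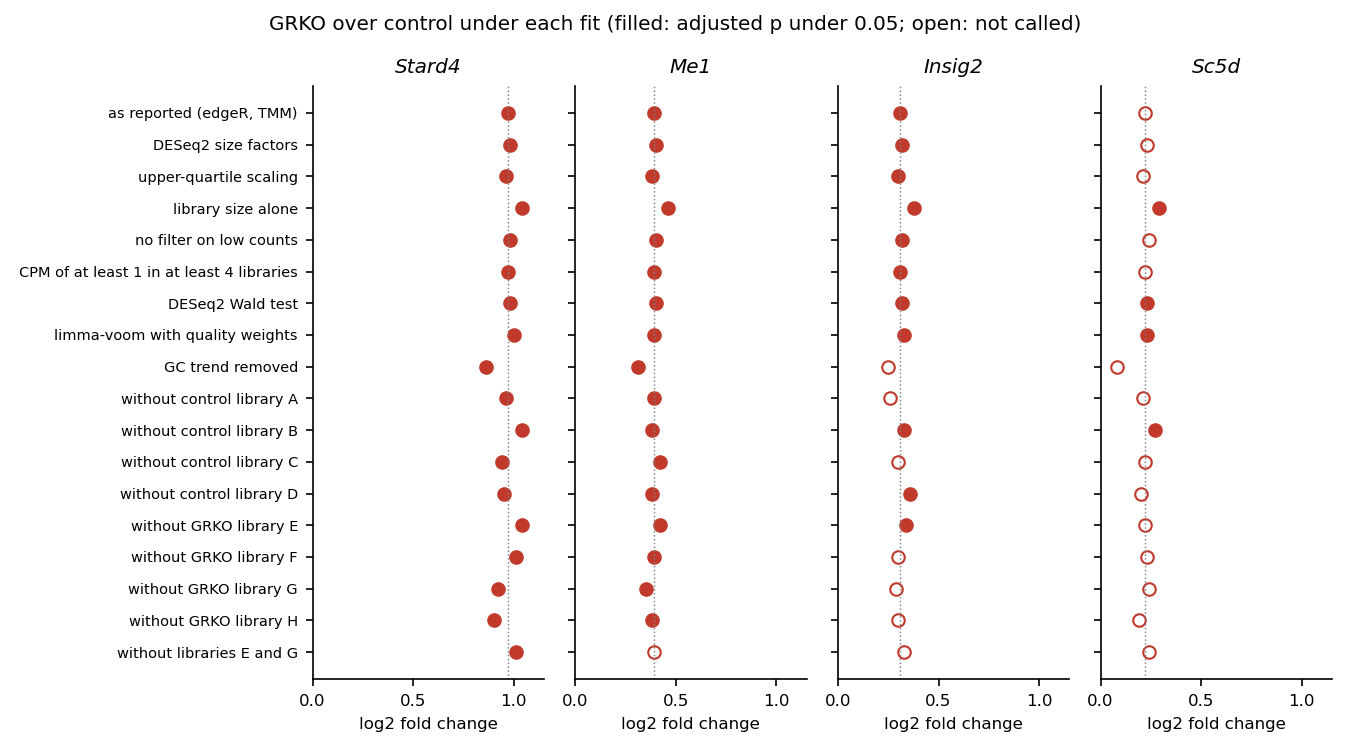
Log2 fold change (libraries labelled GRKO over control) of Stard4, Me1, Insig2 and Sc5d under each fit, filled where the adjusted p is under 0.05 and open where it is not. Stard4 is filled throughout between 0.86 and 1.04, Me1 is open only without libraries E and G, and Insig2 and Sc5d are filled in some fits and open in others.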

How the data were processed

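Poly(A) RNA was sequenced from stranded dUTP libraries, per the labels' protocols. The authors deposited raw read counts per gene, without normalisation. Per the series' design text, reads were aligned to mm10 with TopHat version 2 and counted with HOMER, and the submitters' processing notes also name bcl2fastq 2.17.1.14 and edgeR. The annotation release and any strand setting are not given in the sources used. Columns were assigned to groups by name. The labels do not say that libraries came from separate mice, so a p-value here reflects spread among libraries, which may be technical.

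Genes were kept with filterByExpr defaults and TMM-scaled, and the groups were compared with edgeR 4.0.16 (robust quasi-likelihood, limma 3.58.1, R 4.3.3) with group as the single factor. Adjustment was by Benjamini-Hochberg across the 14712 genes that passed. Log2 fold changes are libraries labelled GRKO over control, and their SE is the absolute log2 fold change over the square root of F. The 95% intervals use the t distribution with the fit's total degrees of freedom. The test was also run on simulated counts, but the changes planted there were larger than most reported here. That run therefore cannot speak to changes of the size seen in most members. The alternatives were other scalings, filters and tests (DESeq2 1.42.0, limma-voom), removal of the per-library GC trend of transcripts (lowess, span 0.3, GENCODE M21), each library left out, and, chosen after seeing Nr3c1, libraries E and G left out. Exon lengths and overlaps came from GENCODE M21 on GRCm38, the assembly of mm10.

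The members and lists were chosen with earlier results of these data known. Members given in full were, per role, the called ones, the uncalled one with the smallest p and the most abundant one. Further genes were Nr3c1 and the called genes of the wider list, and some items are not reported here.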

Additional observations from a re-analysis of the deposited data

Results flagged for a closer look

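The members Scd1 and Hmgcs1 each had a library far from the other 3 of its group, by Dixon's test at the 95% level. Scd1 was at 239 CPM in library F, labelled GRKO, where the other 3 were at 81.0 to 102 CPM. Hmgcs1 was at 43.2 CPM in control library B, where the other 3 controls were at 38.5 to 38.7 CPM. Chance flags about 1 in 20 groups, and 80 groups were checked (34 members and 6 further genes in each of the 2 groups).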

How the results depend on the processing

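The number of genes called was 1243, with 1993 by DESeq2, 1871 by limma-voom, 683 after GC correction, 226 with E and G left out, and 373 to 1794 with 1 library left out. Members called numbered 3, with 5 by DESeq2, 1 without E and G, and 2 to 5 with 1 library left out, the 5 being reached without control library B. Genes called in the wider list numbered 4, with 8 under library size alone, 8 by DESeq2, 1 without E and G, and 2 to 7 with 1 library left out. The log2 fold change of Nr3c1 was -1.09 without E and G, which were picked by that gene, and -0.63 to -0.20 with 1 library left out. Library size alone moved the share of calls that were higher to 69.8%, against 47.8% with TMM. Some members changed sign. Pmvk was at 0.0027 with DESeq2 size factors, 0.0029 by DESeq2, 0.07 under library size alone, 0.01 with no filter and 0.13 with the GC trend removed. Library size alone gave Srebf2 0.03, Nsdhl 0.02 and Hsd17b7 0.03, and removing the GC trend gave Srebf2 0.10 and Hmgcs1 -0.06. Scd2 was at -0.07 without E and G. With 1 library left out, the log2 fold change ranged from -0.11 to 0.06 for Srebf2, -0.07 to 0.07 for Pmvk, -0.02 to 0.39 for Sqle, -0.09 to 0.0034 for Nsdhl, -0.17 to 0.05 for Hsd17b7 and -0.06 to 0.75 for Scd1. The cause of these changes was not tested. Depth was lowest for Sqle, Acat2 and Elovl6, each at no more than 108 counts in any library. No paired analysis was possible because the numbers in the column names occur in no label.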
